A study of Rattus norvegicus with 20 samples.

Results

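Autophagy delivers damaged proteins and organelles to the lysosome, and the 9 genes described here stand at successive steps of that route: Sqstm1, Map1lc3b, Gabarapl1, Ulk1, Wipi1, Tfeb, Lamp1, Ctsd and Ctsl. They were chosen by name, as the rows of the table whose gene symbol is 1 of these 9, out of 34681 rows in all. Each of the 9 symbols had 1 row, no member was at 0 in any library, and all 9 passed the filter on low values (at least 10 in at least 3 libraries), as did 15954 rows in total.

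RNA came from frozen kidneys of rats in a study of acute kidney injury after trauma and was sequenced as stranded, paired-end mRNA libraries. By their disease labels, 6 libraries were Sham, 6 RM, 5 HS and 3 RM-HS, the last carrying both injuries. The labels leave RM and HS unexpanded, and they are read here as rhabdomyolysis, the breakdown of skeletal muscle, and haemorrhagic shock, the loss of blood pressure through bleeding. The sources used here do not give strain, sex, age, how each injury was made, or the time from injury to sampling. All 6 libraries labelled RM were used, although the design text counts 5 in RM and 19 in total. Nothing states that the libraries are of different animals, and p-values therefore describe the spread of these samples, some of which may be technical.

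In autophagy, a kinase complex built on ULK1 starts the formation of a double membrane, to which WIPI proteins bind through a phosphoinositide. Proteins of the LC3 and GABARAP family are attached to that membrane, and receptors such as p62, the product of Sqstm1, bind both them and ubiquitin-tagged cargo. The closed vesicle fuses with a lysosome, whose membrane is rich in LAMP1 and whose lumen holds proteases such as cathepsin D and cathepsin L. TFEB is a transcription factor that switches on lysosomal and autophagy genes and is held in the cytosol when the kinase complex mTORC1 is active. In the kidney, proximal tubule cells take up filtered protein and degrade it in lysosomes, and they are known for a high autophagic capacity. RNA levels alone do not measure how much material passes along this route.

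In the rn6 build of the table, Sqstm1 (GSRG0006354) lies at chr10:35704728-35716298, Map1lc3b (GSRG0014654) at chr19:53629779-53646063, Gabarapl1 (GSRG0022515) at chr4:163293724-163302858 and Ulk1 (GSRG0008387) at chr12:51908448-51934702. Wipi1 (GSRG0006951) lies at chr10:97859731-97896497, Tfeb (GSRG0032852) at chr9:15208142-15214823 and Lamp1 (GSRG0012386) at chr16:81689576-81706561. Ctsd (GSRG0004709) lies at chr1:215541569-215553446 and Ctsl (GSRG0012982) at chr17:1872354-1879281. These spans are those the table gives for whole genes.

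Depth ran from 45047179 to 109940948 reads per library, of which 42.2% to 54.7% lay on 14 mitochondrial rows, leaving 23265956 to 51908015 others. Levels below are read counts normalized by DESeq2, and group values are mean ± SD over libraries. They were not divided by gene length, so they are compared between groups and not between genes. Changes are log2 fold changes ± SE on the log2(value + 1) scale from limma, with Benjamini-Hochberg adjusted p-values over all 15954 rows, and a gene passed when that p was under 0.05. The Sham libraries were not alike. The summed level of 7 early proximal tubule markers was 244103 in Sham 1 and 246479 in Sham 6, but 79456 to 149436 in Sham 2 to Sham 5. It was 231316 to 333267 in RM, 214656 to 274242 in HS and 235021 to 399045 in RM-HS. The library names begin with R in every Sham and RM-HS library, in RM 1 and in HS 1 to HS 3, and with S in the other RM and HS libraries, and no source says what the letter marks. Where either split changes a call on a member or the count of a list by much, the new value, count or call is given with it.

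Against Sham, 5 of the 9 members rose and 2 fell in RM, 5 rose and 1 fell in HS, and 6 rose and 2 fell in RM-HS. Changes were widespread in these kidneys: 53% of all tested rows passed in RM, 46.4% in HS and 42.3% in RM-HS, so the share of members that passed is read against these. The members were chosen with earlier results of these data known, so these shares are given as background and the difference from them is no test. By direction, 26.2% were higher and 26.8% lower in RM, 23.3% and 23.2% in HS, and 21.3% and 21% in RM-HS. The median change of the 9 members was 0.79, 0.58 and 0.82 on the log2 scale in RM, HS and RM-HS, where the median of all tested rows was -0.04, -0.03 and -0.03. The genes that rose in all 3 comparisons were Sqstm1, Gabarapl1, Lamp1, Ctsd and Ctsl, which encode a receptor, a vesicle protein and 3 lysosomal proteins. Tfeb was lower in each of the 3, Wipi1 was lower in RM and RM-HS, Map1lc3b was higher in RM-HS alone among tests that passed, and Ulk1 passed in none. The groups did not overlap for 5 members in RM, 4 in HS and 6 in RM-HS, which held for 25.7%, 25.9% and 32.5% of all rows. Among the libraries named R, where RM 1 stands alone for RM, 1 of the 9 members passed in RM, and the other calls in RM ended, at 0.46 for Gabarapl1, -0.37 for Wipi1, -0.38 for Tfeb, 0.70 for Lamp1, 0.66 for Ctsd and 1.43 for Ctsl. The 3 comparisons share the same Sham libraries. All tested rows split into 4178 higher and 4277 lower in RM, 3712 and 3698 in HS, and 3395 and 3354 in RM-HS. Upper quartile scaling moved the median of all rows by -0.14, -0.12 and -0.13 and turned these splits to 3249 and 5529, 2937 and 4695, and 2586 and 4413. Under it, Ulk1 also passed as lower in RM (-0.46), and Map1lc3b no longer passed in RM-HS (0.25) and was at -0.11 in HS, where neither scaling gave a call.

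**Figure D1:**
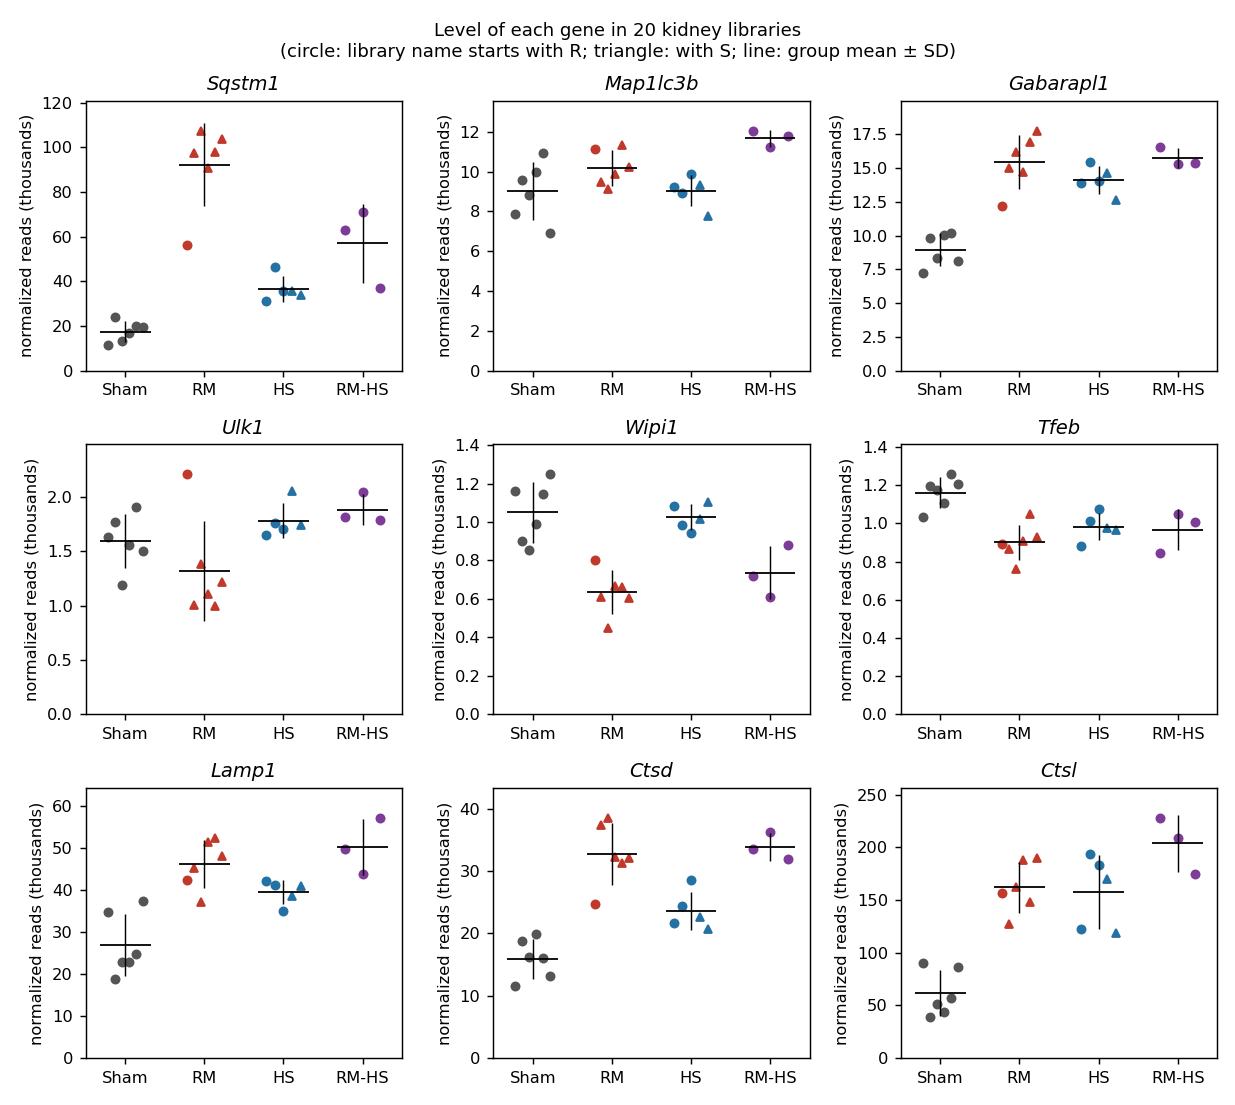
Normalized read counts of the 9 members (y axes, normalized reads on a linear axis from 0, a panel for each gene) in the Sham, RM, HS and RM-HS libraries (x axis). Each point is 1 library, circles for names in R and triangles for names in S, and lines mark the group mean ± SD. Sqstm1 in RM lies between 56320 and 107357, above every Sham library (11433 to 23957), whereas the Map1lc3b values of Sham, RM and HS overlap.

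Sqstm1 showed the largest rise of the 9 in RM. Its level in Sham ran from 11433 to 23957 with a median of 18215. In RM the lowest library was at 56320, the median at 97474 and the highest at 107357. The HS libraries stood at 31442, 46387, 35562, 35838 and 33931, and the RM-HS libraries at 62819, 71091 and 37142. Every injured library lay above every Sham library, and every RM library lay above every HS library, while RM-HS overlapped both. RM 1, the RM library whose name begins with R, was the low one of its group, and RM-HS 3 was the low one of the combined injury. The change against Sham was 2.41 ± 0.19 in RM (5.33-fold, adjusted p = 8e-09), 1.10 ± 0.20 in HS (2.14-fold, adjusted p = 0.00019) and 1.70 ± 0.24 in RM-HS (3.24-fold, adjusted p = 1.5e-05). With RM 1 as the sole RM library, among the libraries named R, the change in RM was 1.73 and still passed.

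Gabarapl1 and Map1lc3b belong to the same family of vesicle proteins, and their RNAs did not move alike. Gabarapl1 was between 7262 and 10183 in Sham, with a median of 9071, and between 12185 and 17742 in RM, with a median of 15563. It stood at 13865, 15427, 14060, 14625 and 12640 in HS and at 16554, 15316 and 15337 in RM-HS. No injured library overlapped Sham. The change was 0.79 ± 0.10 in RM (adjusted p = 1.4e-06), 0.67 ± 0.10 in HS (adjusted p = 2.9e-05) and 0.82 ± 0.12 in RM-HS (adjusted p = 1.9e-05), and the 3 injuries overlapped each other.

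Map1lc3b, which encodes the LC3B protein widely used to mark autophagosomes, was at 9024 ± 1462 in Sham, 10193 ± 891 in RM and 9042 ± 780 in HS. These 3 groups overlapped, and the changes of 0.19 ± 0.10 in RM (adjusted p = 0.11) and 0.02 ± 0.10 in HS (adjusted p = 0.92) did not pass. In RM-HS it stood at 12052, 11214 and 11791, each above every Sham library (highest 10953), with a change of 0.39 ± 0.12 (adjusted p = 0.011). Without RM-HS 1 that change was 0.37 and no longer passed. Against Sham 1 and Sham 6 alone, which were the lowest of the group at 7870 and 6936, the change in RM was 0.46 and passed, as it did without Sham 5 (0.25). Reference annotation lists processed copies of Map1lc3b and of Sqstm1 elsewhere in the rat genome, so reads shared with them leave both levels uncertain.

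Within a library, a ratio of both genes does not depend on the scaling between libraries. The ratio of Gabarapl1 to Map1lc3b reads was 0.999 ± 0.092 in Sham, 1.53 ± 0.24 in RM, 1.57 ± 0.12 in HS and 1.35 ± 0.04 in RM-HS. The highest Sham library was at 1.17, and RM 1, at 1.09, was the only injured library at or below it. Sqstm1 also rose relative to Gabarapl1 in RM. In HS and RM-HS the mean ratio was higher too, but HS 1 (2.27) and RM-HS 3 (2.42) lay inside the Sham range. That ratio was 1.94 ± 0.41 in Sham, 5.93 ± 0.73 in RM, 2.59 ± 0.28 in HS and 3.62 ± 1.12 in RM-HS, and the lowest RM library (4.62) was above every Sham (highest 2.45) and HS (highest 3.01) library. The ratios are given as descriptions of unequal change, with no test.

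**Figure D2:**
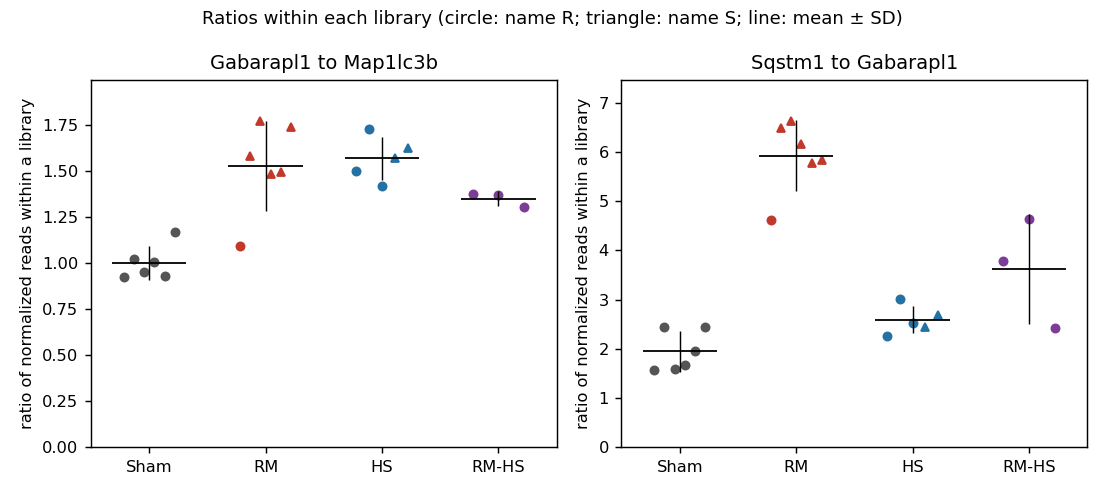
Ratios of normalized read counts within each library (y axes) for pairs of members in the 4 groups (x axis), with 1 point for each library (circles for names in R, triangles for names in S) and lines for the mean ± SD. The Gabarapl1 to Map1lc3b ratio lies near 1 in Sham and above 1.17 in every injured library except RM 1, and the Sqstm1 to Gabarapl1 ratio of every RM library exceeds that of every Sham and HS library.

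Among the members, Ulk1 and Wipi1, which act in initiation, did not follow the receptor. Their close relatives Ulk2 and Wipi2 did rise and passed in RM, HS and RM-HS, by 0.32, 0.68 and 0.60 and by 0.26, 0.34 and 0.61. Rises and falls in the whole list of autophagy machinery are counted further below. Ulk1, the kinase that starts autophagosome formation, was between 1187 and 1911 in Sham (median 1592) and between 994 and 2207 in RM (median 1162). It stood at 1653, 1760, 1702, 2055 and 1737 in HS and at 1816, 2044 and 1790 in RM-HS. The RM libraries were split: RM 1 held the highest value of all 20, and the other 5 RM libraries lay between 994 and 1382. The change of -0.32 ± 0.15 in RM did not pass (adjusted p = 0.09), nor did 0.17 ± 0.16 in HS (adjusted p = 0.4) or 0.26 ± 0.19 in RM-HS (adjusted p = 0.29). Without RM 1 the change in RM was -0.48 and passed, without Sham 3 it was -0.40 and passed, and among libraries named R, where RM 1 stands alone, it was 0.49.

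Wipi1, the phosphoinositide-binding protein that marks the forming membrane, fell in RM. It was between 855 and 1248 in Sham (median 1066) and between 451 and 805 in RM (median 637), so that every RM library lay below every Sham library. The RM-HS libraries stood at 721, 609 and 881, of which RM-HS 3 reached into the Sham range. The HS libraries, at 1083, 984, 945, 1016 and 1106, lay inside it. The change was -0.73 ± 0.13 in RM (adjusted p = 7.2e-05), -0.02 ± 0.13 in HS (adjusted p = 0.91) and -0.51 ± 0.15 in RM-HS (adjusted p = 0.011). Without RM-HS 2 the change in RM-HS was -0.38 and did not pass. In HS the sign of the near-zero change differed between scalings, at 0.01 under scaling by trimmed mean of M values.

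Tfeb, the lysosomal transcription factor, was modestly lower after injury. Its level was 1161 ± 80.1 in Sham, 900 ± 93.1 in RM, 983 ± 70.7 in HS and 967 ± 107 in RM-HS, and each injured group overlapped Sham. The change of -0.37 ± 0.08 in RM passed (adjusted p = 0.00097), as did -0.24 ± 0.09 in HS (adjusted p = 0.029) and -0.27 ± 0.10 in RM-HS (adjusted p = 0.041). The calls in HS and RM-HS each ended on leaving out single libraries. In HS they were Sham 5 (-0.22), Sham 6 (-0.23), HS 1 (-0.20), HS 4 (-0.24) and HS 5 (-0.24). In RM-HS they were Sham 2 (-0.26), Sham 3 (-0.26), Sham 5 (-0.24), Sham 6 (-0.26), RM-HS 1 (-0.17) and RM-HS 3 (-0.30). The call in HS also ended in edgeR (-0.21), under scaling by trimmed mean of M values (-0.21), with the library letter as a covariate (-0.24) and in the R libraries alone (-0.23). That in RM-HS ended with only the groups compared in the fit (-0.27) and among libraries named R (-0.27), and that in RM among libraries named R (-0.38). Against Sham 1 and Sham 6 alone none of the 3 passed, at -0.31, -0.19 and -0.21.

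Before the lysosomal genes, the sequence near their start sites is shown, because TFEB and its relatives are known to bind the E-box CACGTG and its extended form TCACGTG in lysosomal genes. The windows are RefSeq promoters of the GRCr8 build, a different build from the rn6 coordinates of the table, and run from 250 bases before to 50 bases after the annotated start. Lamp1 lies at chr16:83075014-83075313 on the minus strand and Ctsd at chr1:206968772-206969071 on the minus strand. Ctsl lies at chr17:769854-770153 on the plus strand. Capitals mark matches on either strand to CACGTG and to its extended form, and to TGACNNNGC, which is the core of the antioxidant response element that NRF2 binds.
Lamp1: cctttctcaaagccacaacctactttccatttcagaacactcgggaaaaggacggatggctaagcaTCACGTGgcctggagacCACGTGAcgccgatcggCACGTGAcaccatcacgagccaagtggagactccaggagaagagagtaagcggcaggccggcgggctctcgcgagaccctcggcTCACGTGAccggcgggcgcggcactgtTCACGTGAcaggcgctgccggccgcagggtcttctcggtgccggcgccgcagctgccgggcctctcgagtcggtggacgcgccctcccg
Ctsd: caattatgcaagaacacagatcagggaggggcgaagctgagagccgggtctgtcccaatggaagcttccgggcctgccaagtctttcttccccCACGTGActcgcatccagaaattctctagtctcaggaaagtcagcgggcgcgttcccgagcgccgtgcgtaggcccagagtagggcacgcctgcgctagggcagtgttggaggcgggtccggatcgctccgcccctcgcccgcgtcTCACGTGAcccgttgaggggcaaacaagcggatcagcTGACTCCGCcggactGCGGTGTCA
Ctsl: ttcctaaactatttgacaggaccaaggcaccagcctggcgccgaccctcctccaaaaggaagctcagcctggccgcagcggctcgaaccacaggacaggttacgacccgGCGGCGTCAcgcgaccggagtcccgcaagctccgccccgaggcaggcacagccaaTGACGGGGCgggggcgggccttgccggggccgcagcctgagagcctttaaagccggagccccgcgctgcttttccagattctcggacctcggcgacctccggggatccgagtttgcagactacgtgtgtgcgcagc

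The Lamp1 window holds 5 CACGTG matches, which begin at positions -183, -167, -150, -65 and -38 from the start, and it was the only 1 of 33469 rat promoters of the same length with 5 or more. It holds 7 matches to TCACGTG, all of which overlap a CACGTG. The Ctsd window holds 2 CACGTG matches, 3 overlapping TCACGTG matches and 2 TGACNNNGC matches. Ctsl has 2 TGACNNNGC matches and neither form of the E-box, and Map1lc3b has 1 TGACNNNGC match. These letters are not in the windows of Sqstm1, Gabarapl1, Ulk1, Wipi1 or Tfeb. Of all promoters, 6.42% hold CACGTG, 3.20% hold TCACGTG and 12.1% hold TGACNNNGC. A match describes the letters and is not evidence of binding.

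Ctsl, which encodes the cysteine protease cathepsin L, rose in each injury. Its level in Sham ran from 39132 to 90123 with a median of 54355. In RM it ran from 127105 to 189774 with a median of 159641. It stood at 122603, 193407, 183150, 170217 and 118653 in HS and at 227998, 208578 and 174674 in RM-HS. All injured libraries lay above all Sham libraries, and the injuries overlapped each other. The change was 1.46 ± 0.20 in RM (adjusted p = 4.2e-06), 1.41 ± 0.21 in HS (adjusted p = 2.1e-05) and 1.80 ± 0.24 in RM-HS (adjusted p = 9.8e-06).

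Lamp1, a heavily glycosylated protein of the lysosomal membrane, was between 18781 and 37450 in Sham (median 23946) and between 37267 and 52357 in RM (median 46775). It stood at 42131, 41277, 35126, 38721 and 41010 in HS and at 49921, 43958 and 57273 in RM-HS. RM and HS each overlapped Sham through Sham 6. The change was 0.81 ± 0.14 in RM (adjusted p = 7.8e-05), 0.60 ± 0.15 in HS (adjusted p = 0.0025) and 0.94 ± 0.17 in RM-HS (adjusted p = 0.00025).

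Ctsd, which encodes the aspartic protease cathepsin D, was between 11464 and 19900 in Sham (median 16149) and between 24764 and 38521 in RM (median 32133). It stood at 21588, 24354, 28571, 22659 and 20767 in HS and at 33457, 36248 and 31843 in RM-HS. No injured library overlapped Sham, and every RM-HS library lay above every HS library. The change was 1.05 ± 0.13 in RM (adjusted p = 1.6e-06), 0.58 ± 0.14 in HS (adjusted p = 0.0015) and 1.11 ± 0.16 in RM-HS (adjusted p = 1.9e-05).

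These 3 lysosomal genes differed in how the Sham libraries were ordered. Sham 1 and Sham 6, with the high early proximal tubule marker sums, held the highest Lamp1 (34835 and 37450) and Ctsl (90123 and 86327) of the Sham group, and the lowest Ctsd (11464 and 13179). Per 100 reads of those 7 markers, Lamp1 stood at 18.1 ± 3.57 in Sham, 15.9 ± 0.75 in RM, 16.3 ± 0.93 in HS and 15.8 ± 2.53 in RM-HS. Every injured library lay inside the Sham range of 14.3 to 23.6 on that measure. Ctsl stood at 39.9 ± 4.96, 56.0 ± 9.44, 65.9 ± 19.6 and 65.9 ± 22.5 on the same measure. Each injured group overlapped its Sham range of 35.02 to 49.25, with lowest values of 44.44 in RM, 43.27 in HS and 43.77 in RM-HS. Ctsd stood at 12.5 ± 7.35, 11.5 ± 3.10, 9.81 ± 2.23 and 10.99 ± 3.92, inside the Sham range of 4.70 to 23.6 in every injured library. Against Sham 1 and Sham 6 alone, Lamp1 was at 0.35 in RM and 0.13 in HS, neither of which passed, and at 0.47 in RM-HS, which did. On the same footing Ctsl was at 0.86, 0.81 and 1.20 and Ctsd at 1.40, 0.93 and 1.46, all of which passed. Fewer cells of a type and less RNA per cell cannot be told apart in bulk samples, and the part of the marker levels in these results was not tested.

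**Figure D3:**
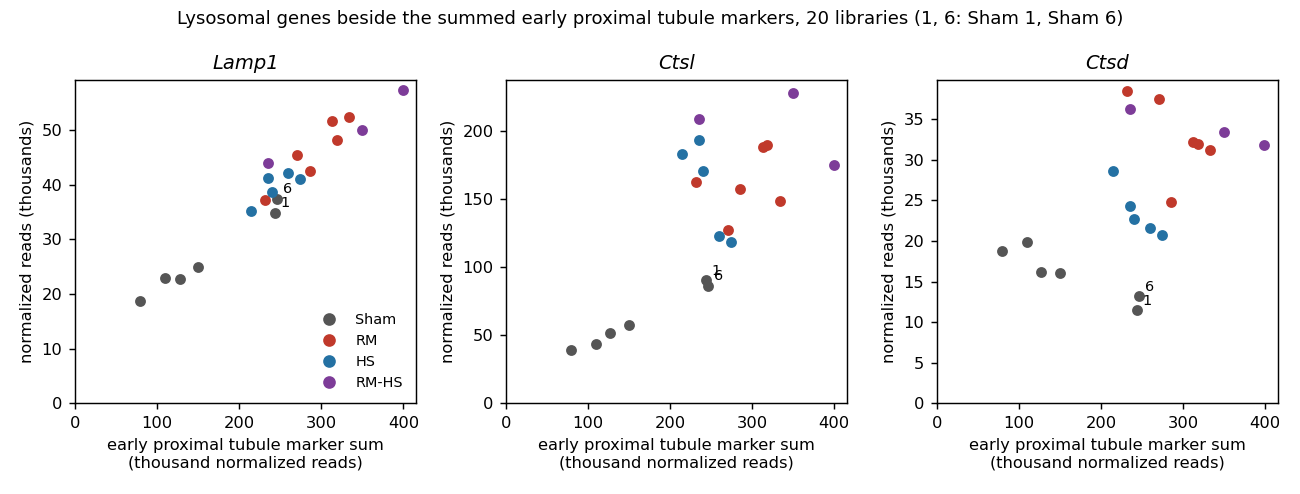
Level of Lamp1, Ctsl and Ctsd (y axes, normalized reads on a linear axis from 0) against the summed level of 7 early proximal tubule markers (x axes, normalized reads on a linear axis from 0), with 1 point for each library, coloured by group. Sham 1 and Sham 6, marked 1 and 6, lie near the injured libraries for Lamp1 and apart from them for Ctsd.

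Macrophages and neutrophils are rich in lysosomes, and their markers are given beside the lysosomal genes. The summed level of 11 macrophage markers was 40783 to 82888 in Sham, 44403 to 52395 in RM, 29384 to 49972 in HS and 47131 to 53295 in RM-HS. Of the 10 that were tested, 2 rose in RM, 1 rose and 3 fell in HS, and 3 rose and 2 fell in RM-HS. Against Sham 1 and Sham 6 alone, 3 rose and 0 fell in RM, 2 and 1 in HS, and 5 and 2 in RM-HS. With the library letter as a covariate the counts were 1 and 0, 0 and 4, and 3 and 2. The summed level of 10 neutrophil markers was 2067 to 5968 in Sham, 5907 to 22262 in RM, 2650 to 9268 in HS and 8828 to 14184 in RM-HS, and 9, 3 and 9 of them rose, with 1 fall in HS. No marker in either list was at 0 in all libraries. Of the 7 early proximal tubule markers, 6, 5 and 6 rose in RM, HS and RM-HS, and 0 fell. Against Sham 1 and Sham 6 alone, 1, 0 and 2 of them rose, and with the library letter as a covariate 4, 4 and 6. Markers of other nephron segments moved as well. All 5 thick ascending limb markers fell in RM and in HS and 4 of 5 in RM-HS, and all 5 principal cell markers fell in each injury. Against Sham 1 and Sham 6 alone, 4, 2 and 3 principal cell markers fell in RM, HS and RM-HS. The thick ascending limb sum was 174307 to 293084 in Sham, 87519 to 197995 in RM, 71174 to 123185 in HS and 133444 to 158964 in RM-HS. The principal cell sum was 30473 to 82831 in Sham, 10475 to 34332 in RM, 12797 to 20064 in HS and 7700 to 17728 in RM-HS. RM 1 held the highest RM sum of both, at 197995 and 34332, where the other RM libraries reached 126032 and 15061. Podocyte markers rose in 7, 5 and 3 of 7 in RM, HS and RM-HS, and their sum in Sham 1 and Sham 6 (9524 and 9371) was again above that of Sham 2 to Sham 5 (2349 to 5999). Against Sham 1 and Sham 6 alone, 1, 0 and 1 podocyte markers rose. Of the other lists, 2 of 5 intercalated cell, 1 of 5 endothelial and 4 of 5 fibroblast markers fell in RM, and 1 endothelial marker rose. In HS 4, 3 and 2 fell, in RM-HS 3, 2 and 3 fell, and 1 endothelial marker rose in each. Fibroblast falls were 0, 1 and 3 in RM, HS and RM-HS with the library letter as a covariate. Against Sham 1 and Sham 6 alone they were 0, 0 and 1, and intercalated cell falls were 2, 2 and 1. Late proximal tubule markers split at 2 higher and 2 lower of 4 in RM, and 1 and 2 in HS and in RM-HS, and neither of 2 distal convoluted tubule markers passed. Against Sham 1 and Sham 6 alone, 1 late proximal tubule marker was higher and 0 were lower in each injury. With the library letter as a covariate that was also the count in RM. The part of these marker levels in the results was not tested.

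**Figure D4:**
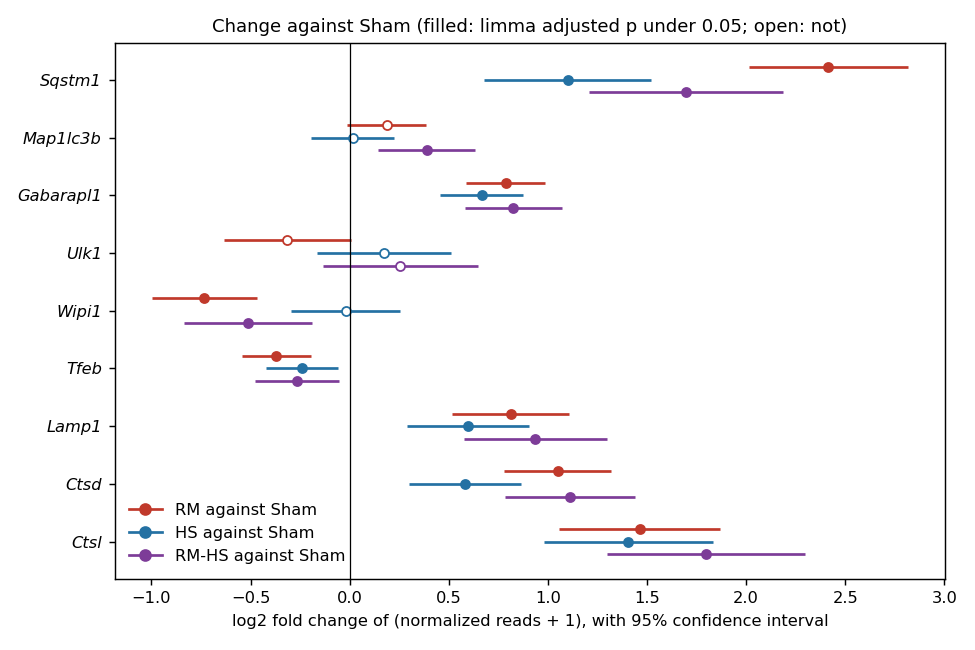
Log2 fold change against Sham (x axis) of the 9 members (y axis) in RM, HS and RM-HS, with bars for the 95% confidence interval from limma and filled points where the adjusted p was under 0.05. Sqstm1 and Ctsl lie farthest to the right, Wipi1 in RM lies farthest to the left at -0.73, and the Wipi1 and Map1lc3b intervals in HS include 0.

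RM and HS were then compared directly. In this comparison 23.8% of all tested rows passed, 11.1% as higher in RM and 12.6% as lower, and 4 of the 9 members did, 2 in each direction. Sqstm1 was higher in RM than in HS by 1.31 ± 0.20 (2.49-fold, adjusted p = 0.00011), and Wipi1 was lower, with a change of -0.71 ± 0.13 (adjusted p = 0.00063), in both cases with no overlap between the groups, which held for 14.2% of all rows. Ctsd was higher in RM by 0.47 ± 0.14 (adjusted p = 0.016), and Ulk1 was lower, with a change of -0.49 ± 0.16 (adjusted p = 0.032), and both overlapped. With the library letter as a covariate, Sqstm1 and Wipi1 still passed, and Ctsd (0.43) and Ulk1 (-0.36) did not. RM 1 is the sole RM library named R, and among R libraries none of the 9 passed, with Sqstm1 at 0.60, Wipi1 at -0.32 and Ctsd at 0.01. Ulk1 was then at 0.37, the other direction. Its call also ended in edgeR (-0.45) and with only the groups compared in the fit (-0.49), and without RM 2 (-0.42), RM 4 (-0.45), RM 5 (-0.42), RM 6 (-0.48), HS 2 (-0.49), HS 4 (-0.44) or HS 5 (-0.50). For Ctsl the difference was 0.06, with a 95% interval from -0.37 to 0.48, and for Gabarapl1 it was 0.12, with an interval from -0.09 to 0.33.

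Against RM, no member passed in RM-HS under limma, where 1.08% of all rows did. The unadjusted p of limma was under 0.05 for 2 of them, Sqstm1 (-0.72 ± 0.24, adjusted p = 0.14) and Ulk1 (0.57 ± 0.19, adjusted p = 0.14). Tests on the recovered reads with edgeR and with DESeq2 each passed 0 of 9. Both passed when RM 1 was left out, at -0.85 and 0.73. The intervals of the differences remained wide, for example from -0.16 to 0.83 for Ctsl. Against HS, 3 members passed in RM-HS, 2 higher and 1 lower, and 20.6% of all rows did, 10% higher and 10.6% lower. Map1lc3b was higher by 0.37 ± 0.12 (adjusted p = 0.034), Ctsd was higher by 0.53 ± 0.16 (adjusted p = 0.027), and Wipi1 was lower, with a change of -0.49 ± 0.16 (adjusted p = 0.034). In each of the 3 the groups did not overlap, which held for 24.9% of all rows, and Lamp1 did not overlap either but did not pass (0.34 ± 0.18, adjusted p = 0.19). With the library letter as a covariate and in edgeR, Map1lc3b did not pass (0.32 and 0.34), and among libraries named R none of the 3 did (0.32, 0.45 and -0.46). The 3 calls also ended on leaving out single libraries. That of Map1lc3b ended without HS 2 (0.37), HS 5 (0.32), RM-HS 1 (0.35), RM-HS 2 (0.40) or RM-HS 3 (0.37). That of Ctsd ended without HS 1 (0.50), HS 4 (0.52), HS 5 (0.48), RM-HS 1 (0.54), RM-HS 2 (0.48) or RM-HS 3 (0.57), and that of Wipi1 without HS 1 (-0.47), HS 4 (-0.50), HS 5 (-0.47), RM-HS 1 (-0.48) or RM-HS 2 (-0.36). Sqstm1, at 0.60 ± 0.24 (adjusted p = 0.086), passed without RM-HS 3 (0.88).

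If the changes of both single injuries added on the log2 scale, Sqstm1 would stand at 193322 in RM-HS, and its geometric mean there was 54945. This departure from additivity, which is the change in RM-HS less the summed changes in RM and in HS, was -1.82 ± 0.31 for Sqstm1 (adjusted p = 0.00031). It was -0.63 ± 0.15 for Gabarapl1 (adjusted p = 0.0043), whose level was 15725 against an additive 24323. For Ctsl it was -1.07 ± 0.32 (adjusted p = 0.014), at 202524 against an additive 425433. These were the 3 of 9 members that passed, all below the additive level, where 31.7% of all tested rows passed and 16.8% did so below that level (2376 rows above and 2678 below, or 3154 and 2080 under upper quartile scaling). Each of the 3 still passed when any single library was left out. None did with the library letter as a covariate (-1.47, -0.49 and -1.20), and Ctsl did not against Sham 1 and Sham 6 alone (-0.47). None passed among libraries named R (-1.17, -0.33 and -1.12). Against Sham 1 and Sham 6 alone 3 members passed, all below the additive level, with Ctsd in place of Ctsl. The count also moved with the method. It was 4 under trimmed mean scaling and in edgeR, all below that level. Under upper quartile scaling and the filter of 50 it was 4, with 1 above and 3 below. In DESeq2 on the recovered reads it was 5, with 1 above and 4 below. Single libraries decided several other members as well. Ctsd, at -0.52 ± 0.21 (adjusted p = 0.062), passed without Sham 2 (-0.57), Sham 4 (-0.59) or RM 1 (-0.60). Tfeb, at 0.34 ± 0.13 (adjusted p = 0.057), passed without Sham 1 (0.38), RM 5 (0.39), HS 3 (0.38) or RM-HS 1 (0.44). Lamp1, at -0.47 ± 0.23 (adjusted p = 0.12), passed without Sham 6 (-0.58), and Ulk1, at 0.40 ± 0.25 (adjusted p = 0.23), without RM 1 (0.56).

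The wider pathway was described by 8 lists of 184 genes, of which 168 were tested and none was a member. In RM 79 of the 168 rose and 27 fell (63.1%), in HS 64 rose and 28 fell (54.8%), and in RM-HS 73 rose and 21 fell (56.0%), beside the 53%, 46.4% and 42.3% of all rows. The lists were also chosen with earlier results of these data known, and they were counted and not tested as sets.

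Among 33 lysosomal hydrolases, 18 rose and 5 fell in RM, 16 and 5 in HS, and 19 and 2 in RM-HS, with median changes of 0.35, 0.21 and 0.48. Ctsb, another cysteine cathepsin, was at 28684 ± 13743 in Sham, 63706 ± 6975 in RM, 63869 ± 2034 in HS and 84406 ± 7072 in RM-HS, and rose by 1.27, 1.28 and 1.68. Lgmn, the asparagine-specific protease legumain, rose by 1.16, 1.21 and 1.45. Pla2g15, a lysosomal phospholipase, rose from 348 ± 75.2 to 1141 ± 163, 1281 ± 176 and 1472 ± 263. Arsa, a sulfatase, fell in RM and HS by 0.54 and 0.77. Against Sham 1 and Sham 6 alone, 6 hydrolases rose and 3 fell in RM, 4 and 4 in HS, and 5 and 2 in RM-HS. Under upper quartile scaling the counts were 15 and 5, 12 and 8, and 16 and 6, and with the library letter as a covariate 12 and 1, 13 and 4, and 19 and 2. As for Lamp1, the early proximal tubule markers of these Sham libraries moved with the counts, and their part was not tested.

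Of 18 lysosomal membrane proteins, 6 rose and 4 fell in RM, 5 and 3 in HS, and 5 and 4 in RM-HS (4 and 7, 4 and 4, and 4 and 4 under upper quartile scaling). The letter covariate gave 4 and 4, 4 and 3, and 5 and 4, and Sham 1 and Sham 6 alone gave 3 and 4, 1 and 4, and 4 and 3. Lamp2, the close relative of Lamp1, rose by 0.70, 0.65 and 0.77, and Cd63, a tetraspanin of late endosomes, by 0.39, 0.32 and 0.68. Cln3, a lysosomal membrane protein mutated in a childhood storage disease, fell by 0.56, 0.56 and 0.39. Of 16 V-ATPase subunits, which make up the pump that acidifies the lysosome, 9 rose and 1 fell in RM, 2 and 2 in HS, and 7 and 0 in RM-HS. Upper quartile scaling gave 3 and 3, 1 and 6, and 4 and 0, the letter covariate 4 and 0, 1 and 2, and 7 and 0, and Sham 1 and Sham 6 alone 4 and 0, 1 and 2, and 4 and 0. Atp6v1b2 rose most steeply of the named subunits, from 8991 ± 2726 in Sham to 23147 ± 2901 in RM, 28409 ± 4226 in HS and 29610 ± 3193 in RM-HS.

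Tfeb's relatives moved in both directions. Among 31 regulators of TFEB and mTORC1, 12 rose and 7 fell in RM, 13 and 8 in HS, and 12 and 6 in RM-HS (10 and 11, 10 and 9, and 10 and 7 under upper quartile scaling). The letter covariate gave 7 and 6, 13 and 7, and 12 and 6, and Sham 1 and Sham 6 alone gave 7 and 7, 8 and 7, and 8 and 6. Tfec, of the same transcription factor family, rose from 490 ± 23.5 in Sham to 1797 ± 226 in RM, 886 ± 136 in HS and 1504 ± 424 in RM-HS. Mitf, another of the family, fell from 661 ± 156 to 257 ± 71.5, 340 ± 27.6 and 218 ± 55.3. Fnip2, a partner of folliculin in amino acid signalling to mTORC1, rose by 2.68, 1.81 and 2.12. Sesn2 and Sesn3, sestrins that restrain mTORC1, rose by 0.59, 1.55 and 1.22, and by 1.90, 1.52 and 1.92.

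Of 31 genes of the autophagy machinery, 12 rose and 5 fell in RM, 12 and 3 in HS, and 11 and 3 in RM-HS (7 and 9, 8 and 3, and 7 and 4 under upper quartile scaling). The counts were 6 and 0, 9 and 3, and 12 and 3 with the letter covariate, and 8 and 1, 9 and 1, and 8 and 2 against Sham 1 and Sham 6 alone. Tmem41b and Vmp1, membrane proteins needed for autophagosome formation, rose by 1.57, 0.67 and 1.43, and by 0.58, 0.86 and 0.91. Ulk2, the paralog of Ulk1, rose by 0.32, 0.68 and 0.60. Of 20 other selective autophagy receptors and their kinases, 9 rose and 4 fell in RM, 8 and 3 in HS, and 9 and 2 in RM-HS (6 and 5, 7 and 4, and 4 and 3 under upper quartile scaling). They were 5 and 1, 8 and 2, and 9 and 2 with the letter covariate, and 6 and 4, 4 and 3, and 5 and 4 against Sham 1 and Sham 6 alone. Nbr1, a ubiquitin-binding receptor like p62, rose by 0.50, 0.44 and 0.30. Retreg1, a receptor for endoplasmic reticulum, rose by 1.15, 1.40 and 1.51, and Bnip3, a mitochondrial receptor, by 0.63, 1.05 and 1.05. Calcoco1 fell in RM and RM-HS by 0.65 and 0.59, with -0.10 in HS.

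Sqstm1 is known as a target of the oxidative stress factor NRF2 and as a protein that binds its inhibitor KEAP1. Of 10 genes of that pathway, 8 rose and 0 fell in RM, 5 and 3 in HS, and 6 and 3 in RM-HS. The letter covariate gave 7 and 0, 4 and 3, and 5 and 3, and Sham 1 and Sham 6 alone gave 8 and 0, 3 and 1, and 6 and 1. Srxn1, which encodes sulfiredoxin, rose from 482 ± 178 in Sham to 21052 ± 4426 in RM, 3365 ± 843 in HS and 13771 ± 7088 in RM-HS. Nfe2l2, the gene of NRF2 itself, rose by 1.04, 0.30 and 0.81. Of 9 genes of the response to lysosomal damage, 5 rose and 1 fell in RM, 3 and 1 in HS, and 4 and 1 in RM-HS, with 3 and 0, 2 and 1, and 4 and 1 under the letter covariate and 6 and 0, 3 and 0, and 4 and 1 against Sham 1 and Sham 6 alone. Lgals8, a galectin that marks broken lysosomes, rose by 0.64, 0.28 and 0.52, and Lgals9, another galectin, fell by 1.34, 1.43 and 1.63.

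**Figure D5:**
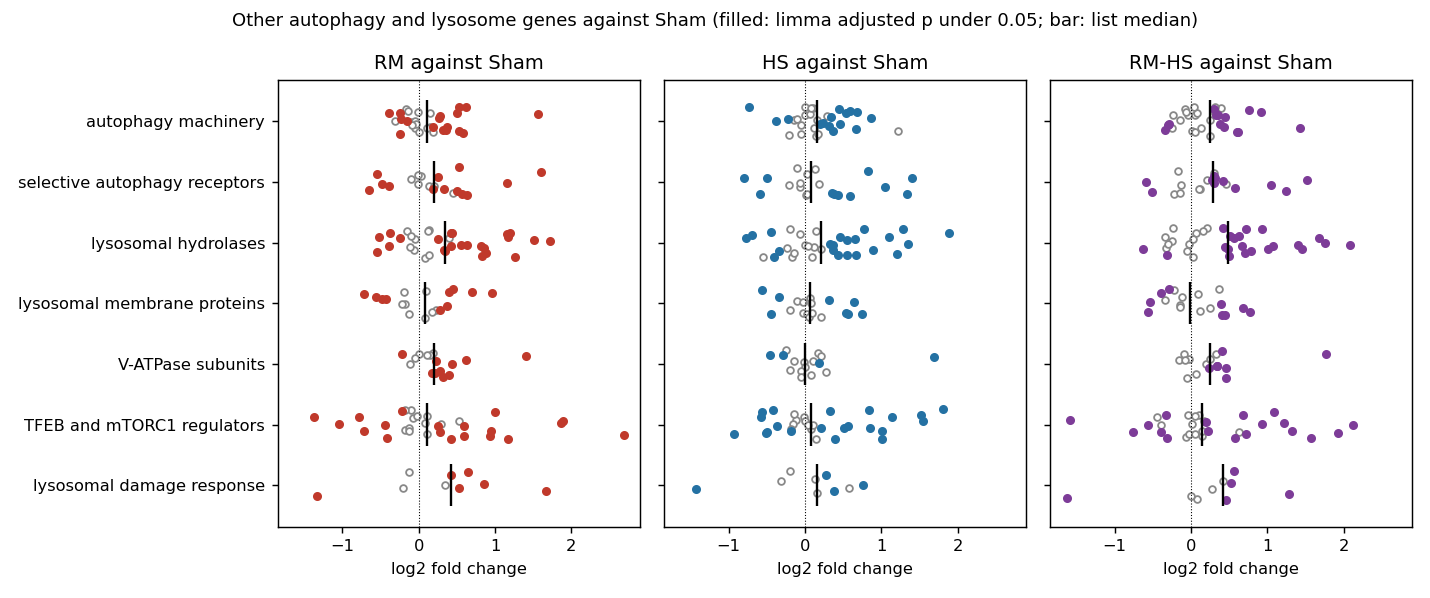
Log2 fold change against Sham (x axes) of the tested genes of 7 of the 8 pathway lists, all but the NRF2 list (y axis), in RM, HS and RM-HS (panels), with filled points where the limma adjusted p was under 0.05 and a bar at each list's median. The hydrolase medians lie at 0.35, 0.21 and 0.48, and the V-ATPase subunits hold 9, 2 and 7 filled points above 0.

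The genes whose pattern was most like each member were ranked by Pearson r on log2(value + 1) over the 20 libraries, among 11157 rows with a symbol and a mean of at least 50. These values are descriptions, since the libraries share group differences and scaling. Nepro (r = 0.982), Maff (r = 0.976) and Gnl3 (r = 0.974) were most like Sqstm1. Cpq (r = 0.991), Snx6 (r = 0.986) and Xrcc5 (r = 0.983) were most like Lamp1. For Ctsl they were Mab21l3 (r = 0.968), Atp6v1b2 (r = 0.962) and Lgmn (r = 0.960), for Ctsd Pvr (r = 0.959), Rassf1 (r = 0.959) and Tgif1 (r = 0.957), and for Gabarapl1 Csnk1d (r = 0.952), Fgl2 (r = 0.949) and N4bp1 (r = 0.944). The closest genes were Ttc30b (r = 0.933) for Wipi1 and B9d2 (r = 0.904) for Tfeb. Ulk1 and Map1lc3b had no gene as near, with Lrrc10b (r = 0.826) and Nedd8 (r = 0.822) at the top.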

How the data were processed

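Kidney mRNA of 20 rat libraries was measured. Reads, per the submitters' processing notes, were examined with FastQC 0.11.2, Picard 1.119 and SAMtools 1.0, aligned with STAR to rn6, counted with featureCounts of Subread 1.5.0, and scaled with DESeq2. The deposited signal values are therefore normalized read counts, and the header names the gene annotation. No source used here gives the settings of aligner or counter. From these values whole reads were recovered, with 100% of values within 0.1 of a whole number.

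Groups came from the disease labels. The 9 members, the pathway and marker lists and the tests were chosen with earlier results of these data known. Rows reaching 10 in 3 or more libraries entered the test, limma 3.58.1 (R 4.3.3) on log2(value + 1), with a mean-variance trend and 4 group means in 1 fit of 20 libraries. Each library held at least 23265956 non-mitochondrial reads, and the lowest level of a member in any library was 451 normalized reads. Counting error weighs more on rows near the filter, and it was not separated from the spread between libraries. The procedure was tried on simulated data. These held no effect of the library letter and no split of the Sham libraries, so the trial cannot speak to either.

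The text names the members, genes from each list among its 4 smallest adjusted p-values in any comparison with Sham, and up to 3 genes most like each member. Wipi2 is named in addition, as a close relative of Wipi1. Alternatives were pseudocounts of 0.5 and 8, no filter, a filter of 50, scaling by trimmed mean of M values or upper quartile, fits of the groups compared only, the library letter as covariate, R libraries only, edgeR 4.0.16, DESeq2 1.42.0, and leaving out each library. Splits of the Sham libraries were added after seeing the data. Promoters are RefSeq's for GRCr8, and all 9 members matched by symbol.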

Additional observations from a re-analysis of the deposited data

Results flagged for a closer look

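Of 27 groups of 5 or 6 libraries examined for a sample far from the others, 3 held one on the log2 scale, the scale of the levels or both. Chance alone picks out about 1 in 20 groups on a single scale, and more where either scale may flag. The groups also share the same libraries, so they are not independent. The gap of the sample to its neighbour is given as a share of the group's range, on the log2 scale and on the scale of the levels. Sqstm1 stood at 56320 in RM 1, with a share of 0.735 (log2) and 0.670 (levels), both beyond the critical 0.625. Ulk1 stood at 2207 in RM 1, with a share of 0.587 (log2), which is below that critical value, and 0.681 (levels), which is beyond it. Ulk1 stood at 2055 in HS 4, with shares of 0.714 and 0.735 against a critical 0.71.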

How the results depend on the processing

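Of 1476 values of members under alternatives, 1345 kept their direction and side of the threshold, 73 lost a call, 27 gained one and 31 changed sign, 1 of them a called value (Ulk1, RM against HS, R libraries only). Counts of rows passing (main counts 8455 in RM, 7410 in HS and 6749 in RM-HS against Sham, 3791 in RM against HS, 173 in RM-HS against RM, 3287 in RM-HS against HS and 5054 for additivity) changed as follows. Fitting only the groups compared gave 42 in RM-HS against RM. The library letter as covariate gave 4551 in RM against Sham, 0 in RM-HS against RM and 617 for additivity, with 2 members in RM against HS and 0 for additivity. R libraries alone gave 766 in RM against Sham, 195 in RM against HS, 0 in RM-HS against RM, 1203 in RM-HS against HS and 0 for additivity, with 1, 0, 0 and 0 members in RM against Sham, RM against HS, RM-HS against HS and additivity. On the recovered reads edgeR passed 8122, 7163 and 6414 rows in RM, HS and RM-HS against Sham. DESeq2 gave 505 in RM-HS against RM and 5 members for additivity. Against Sham 1 and Sham 6 alone 5250, 4105 and 4347 rows passed in RM, HS and RM-HS and 3151 for additivity, and against Sham 2 to Sham 5 alone 5 members passed for additivity. With R libraries alone, RM 1 is assumed to vary like the other groups. The causes of these changes were not tested, and the settings with R libraries alone or part of the Sham libraries also held fewer samples.

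Leaving out each library gave 7828 to 8537, 6647 to 7509 and 5051 to 6842 rows in RM, HS and RM-HS, 3026 to 3712 in RM against HS, 21 (without RM-HS 1) to 480 (without RM 1) in RM-HS against RM, with 24 to 94 without RM-HS 3, RM 2, RM 3, RM 4, RM 5 or RM 6, 2015 (without RM-HS 3) to 3289 in RM-HS against HS and 3989 to 5518 for additivity. Members passing ranged over 7 to 8, 5 to 6, 6 to 8, 3 to 4, 0 to 2, 0 to 3 and 3 to 5 in that order.

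Sign changes were, in HS against Sham, Wipi1 (0.013 under trimmed mean scaling, 0.032 with the letter, 0.002 in edgeR, 0.085 against Sham 2 to Sham 5) and Map1lc3b (-0.108 under upper quartile, -0.121 against Sham 2 to Sham 5). Ulk1 in RM-HS against HS was -0.041 with the letter, and Map1lc3b for additivity was -0.086 against Sham 1 and Sham 6. In R libraries alone Ulk1 was 0.486 in RM against Sham, 0.373 in RM against HS, -0.232 in RM-HS against RM and -0.345 for additivity, Gabarapl1 and Ctsl were -0.244 and -0.055 in RM against HS, Wipi1 was -0.143 in RM-HS against RM and -0.091 for additivity, and Map1lc3b was -0.001 for additivity. Leaving out single libraries moved across 0 Map1lc3b (-0.058 to 0.074) and Wipi1 (-0.077 to 0.032) in HS against Sham, Gabarapl1 (-0.029 to 0.079) and Ctsd (-0.015 to 0.112) in RM-HS against RM, Ctsl (-0.039 to 0.137) in RM against HS and Tfeb (-0.089 to 0.067) in RM-HS against HS. No paired analysis was possible because the labels give no replicate numbers.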

Other observations

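Across the promoters of the pathway lists, 25 of 139 (18.0%) held CACGTG, beside 6.42% of all 33469 rat promoters of the same length. Lysosomal membrane proteins had it in 7 of 17 (41.2%), lysosomal hydrolases in 4 of 23 (17.4%), V-ATPase subunits in 2 of 13 (15.4%) and autophagy machinery in 3 of 27 (11.1%). The lysosomal damage response had it in 2 of 8 (25%), selective autophagy receptors in 3 of 17 (17.6%), regulators of TFEB and mTORC1 in 4 of 25 (16%) and NRF2 and its targets in 0 of 9. These are counts of letters in a window, given with no test.

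The ratio of Ctsl to Ctsd reads within a library was 7.86 in Sham 1 and 6.55 in Sham 6, the 2 Sham libraries that stand apart in their early proximal tubule markers, and 2.09 to 3.56 in Sham 2 to Sham 5. It was 3.39 to 6.34 in RM, 5.68 to 7.94 in HS and 5.49 to 6.82 in RM-HS.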
